A study of Mus musculus with 2 samples.

Results

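Cycling cells of all lineages were picked out in single-cell RNA sequencing of the mouse heart, and 56 of 19865 cells (0.282%) were counted as cycling. They were chosen by their own RNA: a cell needed at least 200 detected genes, at least 3 UMIs (unique molecular identifiers, each standing for 1 captured RNA molecule) summed over 10 cell-cycle genes, and at least 2 of these genes detected. The 10 genes were Mki67, Top2a, Knl1, Kif11, Kif15, Cenpe, Cenpf, Aspm, Hmmr and Anln. The study made 1 library from Sham hearts and 1 from hearts after transverse aortic constriction (TAC), a ligature around the aortic arch that makes the left ventricle pump against high pressure. All mice were C57BL/6, and each library pooled the cells of 3 to 5 hearts. TAC was performed in male mice aged 8 weeks and lasted 6 weeks, and Sham mice had the same operation without the constriction, although the series text calls them uninjured. With 1 library per condition no test was possible, intervals are exact 95% intervals that cover counting error only, and a difference between conditions cannot be told apart from a difference between these 2 libraries.

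A dividing cell copies its DNA in S phase, when licensing factors, polymerases and nucleotide-making enzymes are switched on, and separates the copies in mitosis, when condensins compact the chromosomes, kinetochores attach them to the spindle, and kinesins and actin regulators separate the daughter cells. Transcription of the replication genes is driven by E2F factors, and that of the mitotic genes by the B-MYB and FOXM1 complexes. These complexes act through the cell-cycle genes homology region (CHR), and many promoters of mitotic genes also hold CCAAT boxes. In the adult heart, macrophages and endothelial cells are renewed slowly by division, whereas most cardiomyocytes have left the cycle.

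The promoters of 3 rule genes are shown because they are the ones that hold both motifs of mitotic genes, which most of the 10 do not. The windows are the 250 bases before the gene's start, 5′ to 3′ on the strand of the gene, from RefSeq on GRCm38.p6, and capitals mark the CHR letters TTTGAA and the CCAAT box letters CCAAT, each on either strand. Top2a lies at chr11:99024190-99024439 on the minus strand, Mki67 at chr7:135716380-135716629 on the minus strand and Kif11 at chr19:37376132-37376381 on the plus strand.
Top2a: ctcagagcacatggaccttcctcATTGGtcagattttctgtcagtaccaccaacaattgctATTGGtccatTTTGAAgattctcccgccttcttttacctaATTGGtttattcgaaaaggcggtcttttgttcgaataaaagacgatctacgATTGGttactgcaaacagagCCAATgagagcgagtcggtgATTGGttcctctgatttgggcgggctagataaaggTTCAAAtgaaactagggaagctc
Mki67: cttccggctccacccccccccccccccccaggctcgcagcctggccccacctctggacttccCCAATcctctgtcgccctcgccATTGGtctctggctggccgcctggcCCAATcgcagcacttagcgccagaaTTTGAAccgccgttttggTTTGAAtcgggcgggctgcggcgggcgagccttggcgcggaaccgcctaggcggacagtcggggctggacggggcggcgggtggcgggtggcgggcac
Kif11: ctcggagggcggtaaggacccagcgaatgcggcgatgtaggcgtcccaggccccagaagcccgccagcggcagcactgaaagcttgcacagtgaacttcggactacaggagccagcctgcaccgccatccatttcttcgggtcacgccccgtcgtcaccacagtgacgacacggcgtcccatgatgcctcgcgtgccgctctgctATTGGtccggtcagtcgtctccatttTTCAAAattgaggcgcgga
Top2a held 6 CCAAT boxes and 2 CHR matches, Mki67 held 3 and 2, and Kif11 held 1 of each. Among the 10 rule genes, 7 windows (70%) held a CCAAT box and 4 (40%) a CHR, compared with 33.8% and 16.0% of the 32851 windows of all genes. Both stood together in 3 of the 10 windows, the 3 shown, and in 5.55% of all windows. Of 137 windows of the lineage markers used below, 27.0% held a CCAAT box and 14.6% a CHR. No match overlapped another in the windows of the rule genes, and Anln and Knl1 held neither motif. A match describes the letters only.

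The Sham library held 39 cycling cells among 9934 cells, which is 0.393% (95% interval 0.279 to 0.536). The TAC library held 17 among 9931, or 0.171% (0.0998 to 0.274). The share in TAC was 0.436 times that in Sham (0.231 to 0.789). The Sham matrix held 28146691 UMIs and the TAC matrix 29108986, with medians of 1964.5 and 2143 UMIs per cell, so the library with fewer cycling cells was the deeper one. After each cell had been thinned to 1000 UMIs, with 1757 Sham and 1206 TAC cells too shallow to be kept, 22 Sham cells and 5 TAC cells passed and the ratio was 0.213 (0.063 to 0.576). The 32 barcode sequences that both libraries share included 1 cycling cell, a TAC macrophage. Scrublet, which scores cells against simulated mixtures, called 3 cycling cells of each library doublets, which is 7.69% of the Sham and 17.6% of the TAC members against 4.62% and 4.82% of all cells.

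Cycling cells were not all equally rich in cycle RNA. In Sham they carried 3 to 53 rule gene UMIs, with a median of 10 in a median of 1826 UMIs per cell. In TAC they carried 3 to 27, with a median of 5 in a median of 2449 UMIs. The 39 Sham cells held 475 of the 1034 rule gene UMIs of their library (45.9%), and the 17 TAC cells held 152 of 701 (21.7%). Outside the cycling cells the rule genes stood at 19.9 UMIs per 1000000 in Sham and 18.9 in TAC over all cells. By lineage these levels were 44.2 and 32.2 in macrophages, 16.0 and 8.46 in vascular endothelial cells and 20.3 and 22.4 in cardiomyocytes, which held more than any other lineage of these UMIs.

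Each rule gene had its own share. Mki67, the proliferation marker that coats mitotic chromosomes, had 114 UMIs in 38 of the 56 cycling cells and 42 UMIs in all other cells together. Top2a, the topoisomerase that untangles DNA, had 124 UMIs in 38 cycling cells and 49 elsewhere. Knl1, a kinetochore scaffold, had 82 UMIs in 34 cycling cells and 94 elsewhere. These 3 genes gave the rule most of its UMIs together with Cenpf, another kinetochore protein, with 77 UMIs in 30 cycling cells. The spindle motors Kif11 and Kif15 had 50 and 51 UMIs, the kinetochore motor Cenpe 43, the spindle pole protein Aspm 31, the cytokinesis protein Anln 35 and the hyaluronan receptor and spindle protein Hmmr 20. Hmmr was the rarest and the least often seen elsewhere, with 7 UMIs in all other cells.

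Cenpf differed from the rest in where else it was read. All other cells held 436 Cenpf UMIs, more than of any other rule gene, and 374 of these (85.8%) were in cardiomyocytes. The level there was 13.4 UMIs per 1000000 (12.1 to 14.8), whereas it was 2.23 (1.11 to 3.99) in macrophages and 2.04 (1.05 to 3.57) in vascular endothelial cells outside the cycling cells. Anln was second with 163 UMIs elsewhere, of which 70 were in macrophages at 14.2 per 1000000 (11.1 to 17.9). A single gene could not make a cell a member: 38 cells with 3 or more rule gene UMIs in 1 gene stayed out, of which 31 had Cenpf as that gene and 29 were Cenpf-bearing cardiomyocytes.

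At the threshold itself, 10 members had 3 UMIs in 2 genes and 1 member had 3 UMIs in 3 genes, while 15 cells with 2 UMIs in 2 genes were just outside. A second set of 10 cycle genes that the rule does not use (Tpx2, Nusap1, Kif4, Kif20b, Prc1, Bub1b, Ncapg, Ect2, Kif23 and Cit) was read beside these. At least 1 UMI of the second set was found in 3 of the 10 members with 3 UMIs in 2 genes, in 2 of the 15 cells just outside and in 25 of 25 members with 10 or more rule gene UMIs. The second set, taken with the same minimum of 3 UMIs in 2 genes, chose 48 cells, of which 33 were members. That is 58.9% of the members (45.0 to 71.9) and 68.8% of the cells of the second set (53.7 to 81.3).

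Lineages were read from each cell's own marker UMIs, and 51 of the 56 cycling cells received one. Macrophages gave 18 cells, vascular endothelial cells 12, cardiomyocytes 8, dendritic cells 5, fibroblasts 3, pericytes 3, T cells 1 and B cells 1. The other 5 cells had too few marker UMIs and stayed unassigned. For 45 of the 51 (88.2%) the name of the cell's cluster, made without the cycle genes, was the same as that of its own markers, and it was so for 96.4% of all other cells. The libraries also held cells with markers of lymphatic endothelial cells, smooth muscle cells, Schwann cells, epicardial cells and monocytes, and none of these was cycling. The depth allows little to be said of the smaller ones: 0 of 74 Sham and 0 of 112 TAC lymphatic endothelial cells, read with a floor of 3 cells, allow shares of up to 4.05% and 2.68%.

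**Figure D1:**
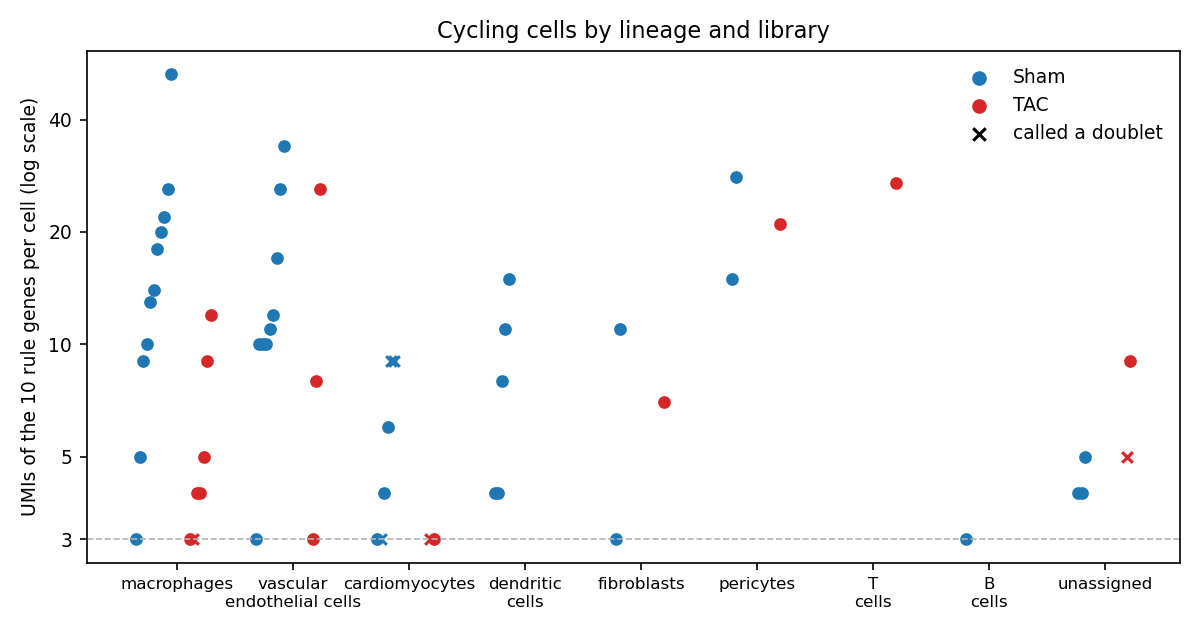
Each point is 1 cycling cell, placed by lineage (x axis) and by its UMIs of the 10 rule genes (y axis, log scale), in blue for Sham and red for TAC, with crosses for cells that Scrublet called doublets. The dashed line is the rule's minimum of 3 UMIs, the highest point is a Sham macrophage with 53, and the cardiomyocytes reach no higher than 9.

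Macrophages, which clear debris and support the myocardium, held the most cycling cells. In Sham, 11 of 1299 macrophages were cycling, or 0.847% (0.423 to 1.51), and in TAC 7 of 1244, or 0.563% (0.227 to 1.16). The Sham cells were the richer ones. Their rule gene UMIs ran from 3 to 53 with a median of 14, while those of the 7 TAC cells were 12, 9, 5, 4, 4, 3 and 3. Over all macrophages, members or not, the rule genes stood at 128.1 UMIs per 1000000 in Sham and 46.7 in TAC, a ratio of 0.365 (0.294 to 0.451). That interval treats UMIs as independent, although 193 of the 293 Sham UMIs were in the 11 cycling cells and 53 in 1 of them. Counted by cells, the share in TAC was 0.664 times that in Sham (0.218 to 1.88), an interval that includes 1. After thinning, 9 Sham macrophages and 1 TAC macrophage still passed.

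The markers named the cells, so their presence in the cycling macrophages was fixed, and the levels describe them. The receptor Adgre1 (F4/80) stood at 1003 UMIs per 1000000 in them and 1089 in other macrophages, the growth factor receptor Csf1r at 441 and 612, and the mannose receptor Mrc1 at 1866 and 2494, which is 0.748 times (0.603 to 0.917). Cd163, a haptoglobin receptor of resident macrophages, differed little, at 0.909 times the level of the others (0.680 to 1.19). Lower values were seen for F13a1, the coagulation factor XIII subunit, at 0.523 times (0.448 to 0.608), for lysozyme Lyz2 at 0.400 times (0.183 to 0.762) and for C1qb at 0.407 times (0.175 to 0.804). The other complement chains C1qa and C1qc stood at 0.850 and 0.813 times, with intervals that include 1. Among markers of macrophage subsets, looked up after values had been seen, Timd4 had 0 UMIs in the 18 cells, with an upper bound of 0.679 on its ratio, and Lyve1 had 2, at 0.191 times (0.0230 to 0.690). Folr2 stood at 0.510 times (0.0616 to 1.86). Ccr2, a receptor of monocyte-derived cells, had 3 UMIs in 2 of the 18 cells, at 1.34 times (0.274 to 3.96). The antigen presentation genes H2-Aa, H2-Ab1 and H2-Eb1 stood at 1.47, 1.70 and 0.759 times, with intervals that include 1. Cd74, another gene of antigen presentation, stood at 0.507 times (0.231 to 0.965).

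Vascular endothelial cells, which line the vessels, came second. In Sham 9 of 1906 were cycling, or 0.472% (0.216 to 0.894), and in TAC 3 of 2238, or 0.134% (0.0277 to 0.391). The 9 Sham cells carried 34, 26, 17, 12, 11, 10, 10, 10 and 3 rule gene UMIs and the 3 TAC cells 26, 8 and 3, so that the ranges overlapped. The TAC cell with 8 lay in a cardiomyocyte cluster. Over all cells of the lineage the rule genes stood at 67.2 UMIs per 1000000 in Sham and 19.6 in TAC, a ratio of 0.291 (0.216 to 0.390). Here too the interval treats UMIs as independent, although 133 of the 174 Sham UMIs were in members. Counted by cells, the ratio of the shares of cycling cells was 0.284 (0.0494 to 1.14), an interval that includes 1. Pan-endothelial genes were read in these cells, mostly below the level of other endothelial cells. Pecam1 stood at 0.796 times (0.515 to 1.18) and Cdh5 at 0.915 times (0.456 to 1.64). Kdr stood at 0.646 times (0.237 to 1.41), Tek at 0.594 times (0.296 to 1.06) and Adgrl4 at 0.706 times (0.491 to 0.982). The angiopoietin receptor partner Tie1, at 1.13 times (0.603 to 1.94), was the only listed marker above the level of the others. Lower values were seen for the VEGF receptor Flt1 at 0.319 times (0.195 to 0.493), for Cyyr1 at 0.524 times (0.345 to 0.763) and for the capillary fatty acid carrier Fabp4 at 0.473 times (0.270 to 0.768).

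Kit, the stem cell factor receptor, was looked up in endothelial cells after its value had been seen. It had 15 UMIs in 5 of the 12 cycling cells, with 8, 2 and 1 UMIs in 3 Sham cells and 3 and 1 in 2 TAC cells. Among other vascular endothelial cells 2.30% held a Kit UMI (1.86 to 2.80), and among other cardiomyocytes, which were deeper (4916 against 1214 UMIs at the median), 0.221% (0.110 to 0.395). The Kit level in cycling endothelial cells was 25.7 times that of the other endothelial cells (14.0 to 43.9). Npr3, a marker of the endocardium, had 0 UMIs in the 12 cells, and all 14 UMIs of Vwf, the von Willebrand factor of larger vessels, were in 1 TAC cell. Rgcc, Car4 and Aplnr had 1 UMI each, at 0.142 times (0.00359 to 0.792), 0.313 times (0.00791 to 1.75) and 1.15 times (0.0291 to 6.50).

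Dendritic cells, which present antigen to T cells, had the highest share in Sham. There 5 of 45 were cycling, or 11.1% (3.71 to 24.1), while 0 of 28 were in TAC, where a count of 0, with the same floor, allows a share of up to 10.7%, so that a difference in the share was not detectable at these numbers. Over all dendritic cells the rule genes had 43 UMIs in Sham and 2 in TAC, a level ratio of 0.0676 (0.00793 to 0.259). That interval treats UMIs as independent, although 42 of the 43 were in the 5 cycling cells. The 5 cells carried 15, 11, 8, 4 and 4 rule gene UMIs. All 5 lay in a cluster of 30 Sham cells led by Clec9a, Wdfy4, Itgae and Flt3, genes of conventional type 1 dendritic cells. Wdfy4 had 30 UMIs and was found in all 5, Clec9a had 4 UMIs in 3 of them and Irf8 had 9 in 3, whereas the macrophage receptors Adgre1 and Csf1r had 0. Of the other listed markers, Xcr1, Batf3 and Zbtb46 had 1 UMI each, and Naaa and Cd209a had 0. Zbtb46 stood at 0.245 times the level of other dendritic cells (0.00613 to 1.40), of which 60.3% held it. Naaa was held by 36.8% of those other cells.

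Cardiomyocytes made up 25.1% of all cells and 8 of the cells that passed the rule, and most of these 8 held little RNA of other cycle genes. In Sham 6 of 2525 passed the rule, or 0.238% (0.0873 to 0.516), and in TAC 2 of 2462, or 0.0812% (0.00984 to 0.293). Their rule gene UMIs were low, 9, 9, 6, 4, 3 and 3 in Sham and 3 and 3 in TAC, in cells with 2370 to 23097 UMIs. The second set gave 5, 1, 0, 0, 0 and 1 UMIs in the same Sham cells and 0 in both TAC cells. Scrublet called 4 of the 8 doublets, and the 2 cells with 9 rule gene UMIs were both among these and lay in a macrophage cluster rather than with cardiomyocytes. The TAC cell with 23097 UMIs lay in a macrophage cluster as well and carried macrophage markers as its second list. Over all cardiomyocytes the rule gene level was 22.6 UMIs per 1000000 in Sham and 22.7 in TAC, a ratio of 1.01 (0.858 to 1.18), and only 40 of 636 of these UMIs were in members. After thinning to 1000 UMIs 1 of the 8 remained, and the part of depth and of doublets in the others was not tested beyond these values.

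Pericytes and fibroblasts gave 3 cycling cells each. The pericytes, contractile cells around capillaries, were rich in rule gene UMIs, with 28 and 15 in Sham and 21 in TAC, and the second set gave 1, 9 and 13 UMIs in the same cells. Their platelet-derived growth factor receptor Pdgfrb stood at 0.977 times the level of other pericytes (0.520 to 1.67), while Rgs5 had 1 UMI, at 0.0976 times (0.00247 to 0.544), and the potassium channel subunit Abcc9 had 6 UMIs, all in 1 cell, at 0.216 times (0.0792 to 0.470). The fibroblasts carried 11 and 3 rule gene UMIs in Sham and 7 in TAC. The matrix gene Dcn stood at 1.14 times the level of other fibroblasts (0.722 to 1.71). Higher values were seen for Gsn at 2.16 times (1.62 to 2.82), Col1a1 at 1.84 times (0.380 to 5.40) and Dpep1 at 1.55 times (0.799 to 2.70). Lower values were seen for the RNA-binding protein Bicc1 at 0.509 times (0.254 to 0.911) and the receptor Pdgfra at 0.406 times (0.0838 to 1.19). Lum, Tcf21 and Dpt had 0 UMIs, which says little in 3 cells, since 13.6%, 5.72% and 28.7% of other fibroblasts held them. The Sham fibroblast with 11 lay in an endothelial cluster. The only cycling T cell was from TAC. It had 27 rule gene UMIs, 14 UMIs of the second set, 13 UMIs of the T cell gene Themis and 12 of the T cell adaptor Skap1. Cd4 and Cd8a had 0 UMIs, which says little in 1 cell, since 4.71% and 8.24% of the other T cells held them. The only cycling B cell was from Sham, had 3 rule gene UMIs and none of the second set, and also carried macrophage markers.

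**Figure D2:**
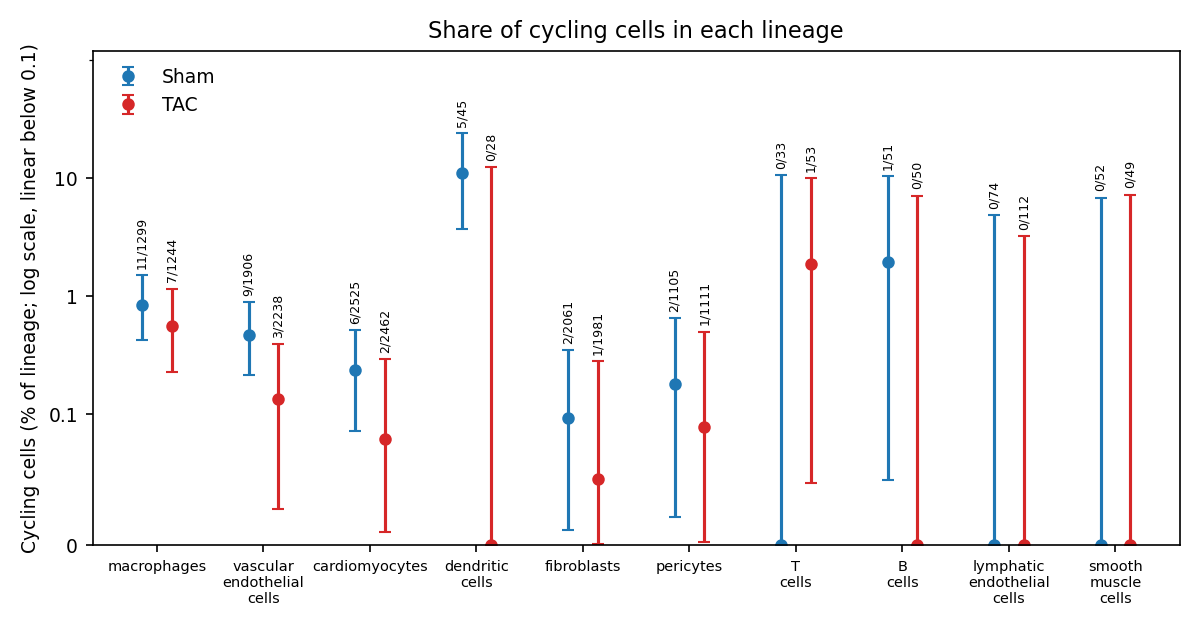
Percent of cells of each lineage that were cycling (y axis, log scale and linear below 0.1), in blue for Sham and red for TAC, with exact 95% intervals for counting error and the number of cycling cells over all cells above each. The Sham point lies above the TAC point in macrophages and in vascular endothelial cells, with overlapping intervals, and dendritic cells of Sham reach 11.1%.

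To see which RNAs went with the cycle and not with the lineage, each gene's UMIs in cycling cells were set against the number expected from the other cells of the same library and lineage at the same total of UMIs. Among 4619 genes outside the rule with at least 10 observed or expected UMIs, 380 (8.23%) were at least 2-fold higher in cycling cells and 162 (3.51%) at least 2-fold lower. Because the members were chosen by cycle genes in these same cells, the values that follow describe the members and test nothing. Intervals take the expected number as fixed. Leaving out the cardiomyocytes, 381 of 3290 genes were higher. A gene rare in other cells reached the minimum only through its UMIs in cycling cells, so that its call as higher was fixed. Among the 3769 genes with at least 10 expected UMIs, 58 (1.54%) were higher and 162 (4.3%) lower. Lists are therefore given by the sum over all their genes, whether or not a gene reached the minimum, and nothing is read from counts of called list members.

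Genes of the mitotic machinery followed the rule genes. The 10 genes of the second set had 312 UMIs observed against 7.20 expected, a ratio of 43.3 (38.7 to 48.4). Prc1, which bundles microtubules between the parting chromosomes, had 37 UMIs in 19 cells, 71.3 times the expected number (50.2 to 98.3). The 32 kinetochore and checkpoint genes together had 427 UMIs against 46.9 expected, a ratio of 9.11 (8.26 to 10.0). They included Cenpp with 93 UMIs, at 17.4 times the expected number in Sham and 6.76 times in TAC, and the checkpoint kinase Ttk with 18 UMIs. The 11 mitotic kinesins together stood at 26.2 times the expected number (22.9 to 29.8) and the 10 cytokinesis genes at 39.1 times (34.7 to 44.0). The formin Diaph3, an actin assembly factor, led the latter in number, with 71 UMIs in 24 cells and a ratio of 48.6 (37.9 to 61.3). The lists overlap, so their ratios are not independent. Of the second set, Prc1, Ect2, Cit and Kif23 are also in the cytokinesis list and Kif4, Kif20b and Kif23 in the kinesin list. Bub1b is also in the kinetochore list and Ncapg in the condensin list.

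Chromosome structure and mitotic kinase genes had the same direction. The 10 condensin and cohesion genes had 295 UMIs against 36.0 expected, 8.20 times (7.29 to 9.19). Among them Smc4, a condensin ATPase, had 81 UMIs in 29 cells, 7.84 times the expected number (6.23 to 9.75), and Esco2, the acetyltransferase that locks cohesin around sister chromatids, had 26 UMIs in 16 cells and only 11 in all other cells used. The 22 mitotic cyclins, kinases and ubiquitin ligase genes had 164 UMIs against 16.5 expected, 9.92 times (8.46 to 11.6), of which Incenp and Aurkb, the scaffold and the kinase of the chromosomal passenger complex, gave 32 and 18.

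Replication genes were higher by less. The 42 genes of the replication list had 462 UMIs against 89.0 expected, a ratio of 5.19 (4.73 to 5.68). Pola1, the catalytic subunit of the primase-linked polymerase, had 83 UMIs at 5.45 times the expected number (4.34 to 6.75), and Atad2, a chromatin ATPase, had 65 UMIs at 13.1 times (10.1 to 16.7). The 15 recombination and crosslink repair genes had 210 UMIs against 16.6 expected, 12.7 times (11.0 to 14.5), among them Brca1 with 22 UMIs at 68.2 times (42.7 to 103.2). The 7 deoxynucleotide genes had 50 UMIs against 6.74 expected, 7.42 times (5.51 to 9.78). Among them the ribonucleotide reductase subunit Rrm1 stood at 8.22 times and the thymidine kinase Tk1 at 17.4 times. The 7 replication-dependent histone genes together had 15 UMIs against 1.65 expected.

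Regulators upstream of the cycle were less uniform. The 15 genes of the E2F, DREAM and FOXM1 list had 274 UMIs against 115.0 expected, 2.38 times (2.11 to 2.68), and of the 4 with at least 10 expected UMIs (Rb1, Rbl2, E2f3 and Lin52) 0 were at least 2-fold higher. E2f7, an atypical E2F that shuts S phase genes down again, had 45 UMIs in 20 cells at 37.3 times the expected number (27.2 to 50.0), and Foxm1 had 11 UMIs, 10 of them in Sham. Rb1, the retinoblastoma brake, stood at 1.34 times (1.03 to 1.71), Rbl2 at 1.13 times (0.630 to 1.86) and E2f3 at 1.62 times (0.987 to 2.49). Among the G1 genes, Ccne2, the cyclin of S phase entry, stood at 8.96 times (4.47 to 16.0), whereas the D-type cyclin Ccnd3 was lower, with 59 UMIs against 123.2 expected, 0.479 times (0.365 to 0.618). The low Ccnd3 value was seen in macrophages at 0.289 times (0.179 to 0.441) and in vascular endothelial cells at 0.152 times (0.0184 to 0.547), but not in dendritic cells at 1.12 times (0.561 to 2.01). Cdk6 stood at 0.922 times (0.608 to 1.34), and the antiproliferative gene Btg2, the only one of 9 genes of its list with enough UMIs, at 1.34 times. The 10 immediate-early genes together had 28 UMIs against 39.1 expected, 0.717 times (0.476 to 1.04). There were 25 against 23.3 in Sham (1.07 times) and 3 against 15.8 in TAC (0.190 times, 0.0392 to 0.555). Of the 69646 UMIs of the TAC members, 23097 were in 1 called doublet.

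By the rule for naming genes, the 10 with the highest ratios among genes with at least 20 UMIs in 5 or more cycling cells included Neil3, Esco2, Cdca2, Tpx2, Kif4, Prc1, Ckap2l, Brca1 and Diaph3. Neil3, a DNA glycosylase that repairs crosslinks ahead of the fork, had 42 UMIs in 18 cells, with 27 in Sham and 15 in TAC, and only 15 UMIs in all other cells of the lineages used. Its ratio of 730 (526 to 986) therefore rests on a small number outside. Cdca2, which recruits a phosphatase to chromosomes, had 31 UMIs at 107 times the expected number. The 5 with the lowest ratios were Mlxipl, Birc3, Abtb2, Jph2 and Plce1, from 0.321 times for Mlxipl, a glucose-sensing factor, to 0.364 times for Plce1, a phospholipase. With lineages taken from clusters, Mlxipl stood at 0.617 times (0.282 to 1.17), Jph2 at 0.656 times (0.375 to 1.07) and Abtb2 at 0.514 times, so that these 3 were no longer 2-fold lower. They had too few UMIs to be given once cardiomyocytes were left out, and Birc3 then stood at 0.349 and Plce1 at 0.456 times. Among genes outside every list Sdk1, an adhesion molecule, had 92 UMIs in 23 cells at 9.58 times, and the lamin Lmnb1 had 38 UMIs in 20 cells at 20.5 times.

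**Figure D3:**
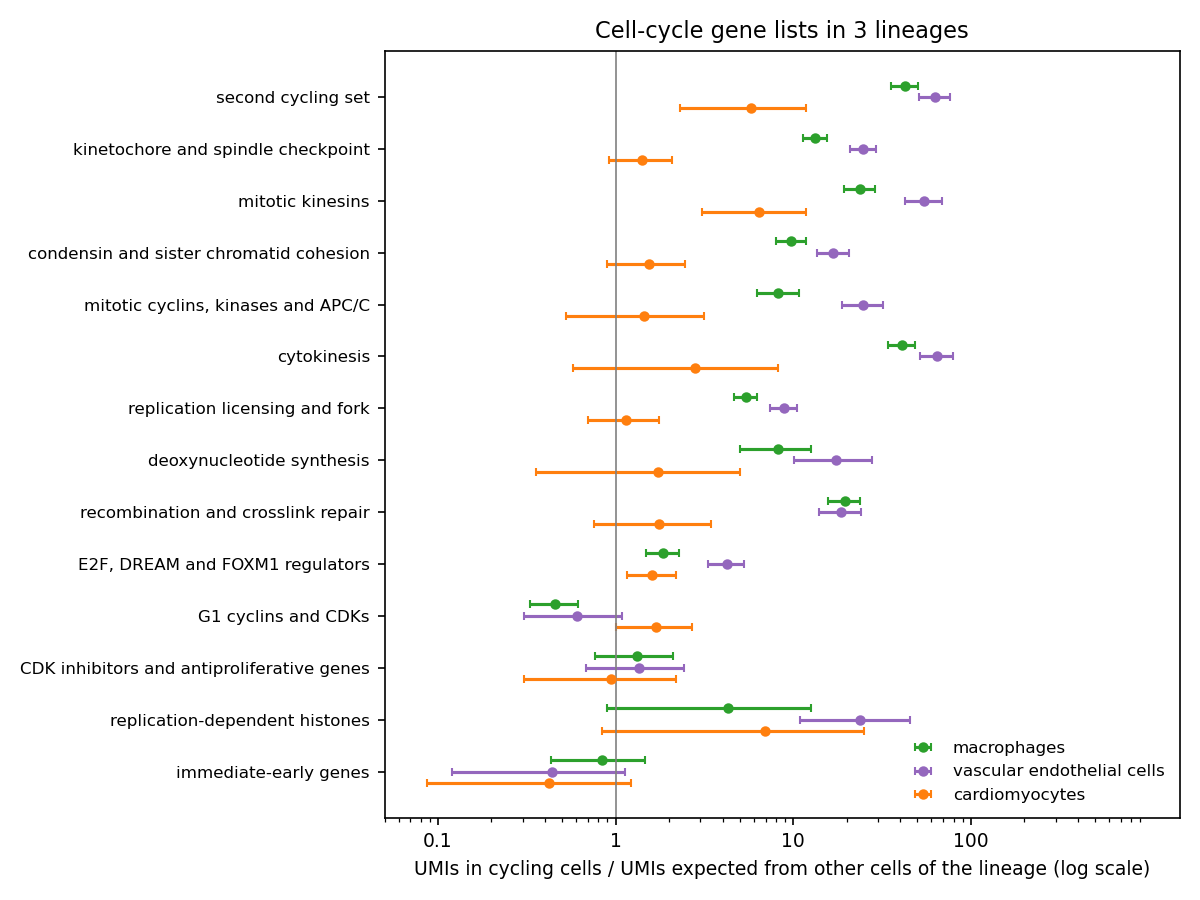
UMIs of each cell-cycle gene list in cycling cells divided by those expected from the other cells of the lineage (x axis, log scale), with exact 95% Poisson intervals, for macrophages in green, vascular endothelial cells in purple and cardiomyocytes in orange. Mitotic and replication lists lie far right of 1 in the first 2 lineages, and near 1 for most lists in cardiomyocytes.

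The lists were then read in each lineage with at least 10 members. In macrophages 187 of 1438 tested genes outside the rule (13%) were at least 2-fold higher, and in vascular endothelial cells 122 of 595 (20.5%). The second set stood at 42.3 times the expected number in macrophages (35.4 to 50.1) and at 62.6 times in endothelial cells (51.0 to 76.2), and the replication list at 5.40 times (4.67 to 6.22) and 8.84 times (7.40 to 10.5). In cardiomyocytes 156 of 1446 genes (10.8%) were higher, but most cycle lists lay near 1. There the second set had 7 UMIs against 1.22 expected (5.76 times, 2.31 to 11.9) and the mitotic kinesins 10 against 1.57, while the kinetochore list stood at 1.42 times (0.916 to 2.09) and the replication list at 1.14 times (0.697 to 1.76). In the 5 dendritic cells the second set had 17 UMIs against 0.258 expected and the replication list stood at 12.3 times (8.73 to 16.8).

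The genes higher in both lineages were 32 of the 373 that had enough UMIs in each (8.58%), and all 32 had enough through their UMIs in cycling cells of at least 1 lineage. Of the 227 genes with at least 10 expected UMIs in each lineage 0 were higher in both and 4 were lower in both. Of these 32, 15 were in a cycle list and 17 in none. The listed ones were Tpx2, Diaph3, Nusap1, Kif20b, E2f7, Cit, Kif23, Atad2, Cenpp, Incenp, Smc2, Smc4, Pola1, Ncapd3 and Cenpc1, which cover spindle, cytokinesis, kinetochore, condensin and replication roles. Of those in no list, Neil3, Cdca2, Rad51b, Ezh2, Hjurp, Tmpo, Cep128, Nsd2, Cep112, Baz1b, Ckap5, Mcph1 and Ctdspl2 mostly code for proteins of DNA repair, chromatin, centromeres, centrosomes, the nuclear lamina or microtubules. Hjurp, the chaperone of the centromeric histone, stood at 5.57 times in macrophages (3.30 to 8.80) and 6.54 times in endothelial cells (3.94 to 10.2). Ezh2, the Polycomb methyltransferase, stood at 10.1 times (6.42 to 15.2) and 12.7 times (6.96 to 21.4).

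Sdk1, Nav2 and Itgbl1, adhesion or cytoskeleton genes, were also in no list. Sdk1 had 45 UMIs in 10 of the 18 cycling macrophages, 29.5 times the expected number (21.5 to 39.5). In 7 of the 12 cycling endothelial cells it had 27 UMIs, 20.2 times (13.3 to 29.4). A UMI of it was held by 3.64% of other macrophages, 3.39% of other endothelial cells and 5.58% of other cardiomyocytes. These figures leave out fibroblasts, where Sdk1 was among the top genes of a cluster in each library. The other cells of all lineages used held 4926 UMIs of it. Nav2, which guides neurites along microtubules, differed between the lineages in size, with 82 UMIs in 10 endothelial cells at 33.8 times (26.9 to 42.0) and 10 UMIs in 6 macrophages at 2.43 times (1.17 to 4.47). It was read in 8.69% of other endothelial cells, in 10.5% of other macrophages and in 83.4% of other cardiomyocytes. Itgbl1 reached the count through 1 cell in each lineage, with 23 and 21 UMIs, and so was not shared by several cells. It was among the top genes of a Sham fibroblast cluster, and the other cells of the lineages used held 13480 UMIs of it.

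The same motif letters were looked for in the windows of these 32 genes, of which 24 were found by symbol with 30 windows. A CCAAT box stood in 16 windows (53.3%, against 33.8% of all windows), a CHR in 5 (16.7%, which is close to the 16.0% of all windows), and an E2F site, searched as TTTCCCGC and TTTGGCGC on either strand, in 4 (13.3%, against 1.30%). Of the rule genes only Kif15 held one.

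**Figure D4:**
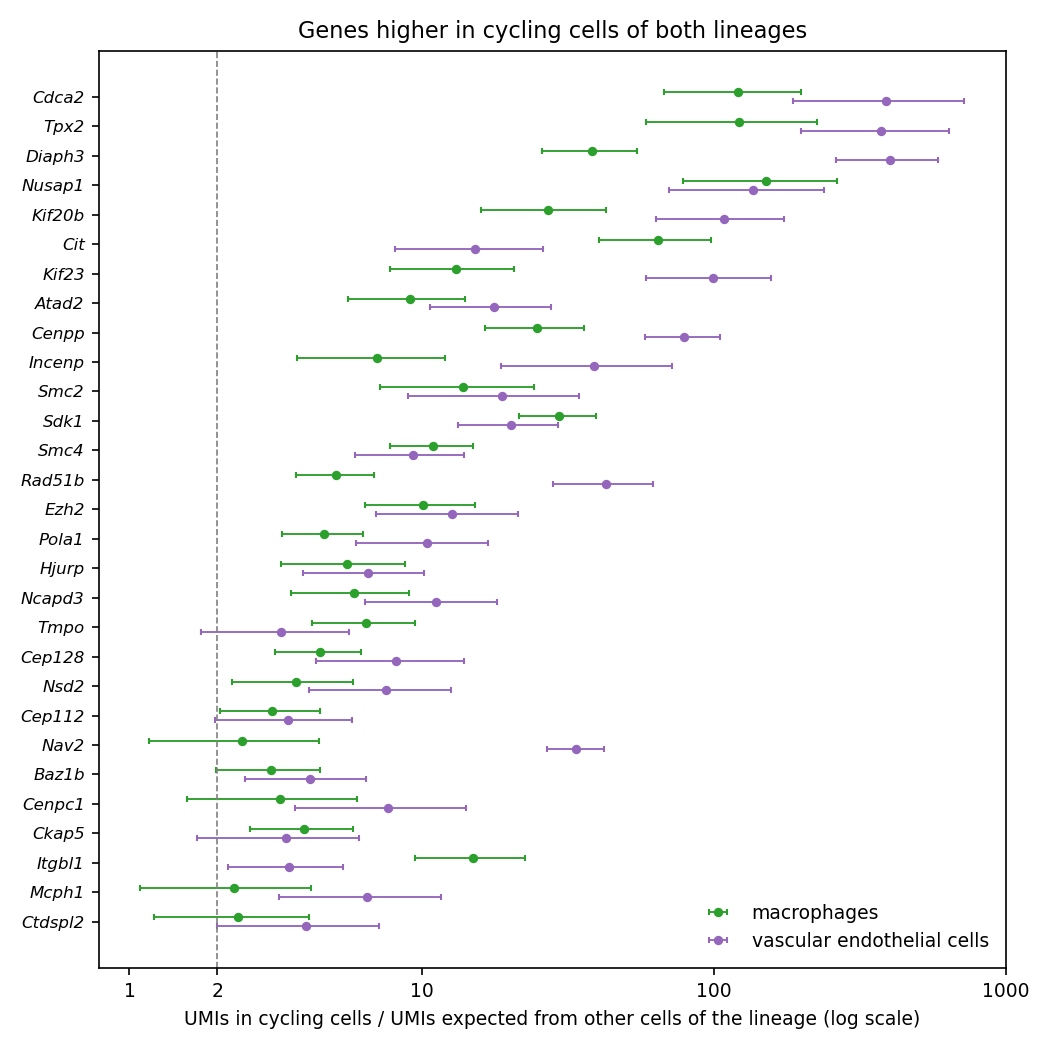
Genes at least 2-fold higher in cycling macrophages (green) and in cycling vascular endothelial cells (purple), shown where each lineage held more than 3 UMIs of the gene outside the cycling cells, with the ratio of observed to expected UMIs on a log axis, exact 95% Poisson intervals and a dashed line at 2. All points lie right of the line, and the lowest ratio is 2.27, for Mcph1 in macrophages.

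Genes lower in cycling cells were read in each lineage as well. In macrophages the 5 lowest included Kcnk13, Ccnd3, Lncpint and Cd84, led by the potassium channel Kcnk13 with 6 UMIs against 22.3 expected. In endothelial cells they were Tshz2, 9530026P05Rik, Bmp6, Xdh and Dnm3, led by the zinc finger factor Tshz2 with 16 UMIs against 67.1 expected. Bmp6, a ligand made by endothelium that controls iron balance, had 10 UMIs against 31.1 expected. No gene was named in both lineages.

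With each library taken by itself, 1827 genes had enough UMIs in both, and 39 of these (2.13%) were at least 2-fold higher in cycling cells of Sham and of TAC. These 39 were 66.1% of the 59 such genes that were higher in Sham and 29.1% of the 134 higher in TAC, and 10 genes were lower in both. With at least 10 expected UMIs in each library, 1 of 1401 genes was higher in both, the chromatin remodeller subunit Baz1b. Of the 39, 13 were in a cycle list. Neil3, Esco2, Diaph3, Kif20b, E2f7, Cit, Kif23, Atad2, Cenpp, Smc4, Rad51b, Ezh2, Pola1 and Hjurp were higher in each library. Topbp1 and Prim2, which act at the replication fork, and the centromeric histone Cenpa were among them too. Kif20b, a kinesin of the cleavage furrow, had 39 UMIs in Sham and 12 in TAC, at 60.4 and 24.8 times the expected number. Ulbp1, a ligand of the natural killer receptor NKG2D that was picked out after its values were seen, had 30 UMIs in Sham and 16 in TAC, at 13.2 and 12.3 times. It belongs to a family of similar genes, so its count is uncertain.

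Most lists of mitosis and replication had lower ratios in TAC than in Sham. Of the 69646 UMIs of the TAC members, 23097 were in 1 cell called a cardiomyocyte and a doublet. Its weight in the TAC ratios was not tested. The second set stood at 59.4 times the expected number in Sham (52.0 to 67.4) and 23.4 times in TAC (18.4 to 29.3), the kinetochore list at 11.1 (9.91 to 12.4) and 5.91 (4.84 to 7.14) and cytokinesis genes at 53.6 (46.6 to 61.3) and 20.8 (16.1 to 26.6). For replication the values were closer, 6.07 (5.43 to 6.77) and 3.87 (3.25 to 4.57), and for recombination and repair 14.0 (11.8 to 16.4) and 10.4 (8.04 to 13.3). The histones went the other way on few UMIs, with 6 in Sham at 5.33 times and 9 in TAC at 17.1 times. The G1 list was close in both, at 0.657 (0.518 to 0.823) and 0.685 (0.477 to 0.953).

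Members differed in their balance of mitotic and replication RNA. Over 85 genes of mitosis outside the rule and 64 of replication and repair, the 11 Sham macrophages held 453 mitotic UMIs, 23.4 times the expected number (21.3 to 25.6), and 177 replication UMIs, 7.80 times (6.69 to 9.04). The 7 TAC macrophages held 101 and 132, at 6.00 times (4.89 to 7.29) and 6.38 times (5.34 to 7.57). So in these 7 TAC macrophages the mitotic ratio was smaller than in Sham and the replication ratio was close to that in Sham. Of their 132 replication UMIs, 52, 25 and 24 were in single cells, and the cell with 24 was called a doublet. The 9 Sham endothelial cells stood at 32.4 times (29.3 to 35.9) for mitosis and 14.4 times (12.4 to 16.6) for replication, and the 3 TAC endothelial cells at 16.7 times (13.3 to 20.8) and 2.90 times (1.69 to 4.65). The TAC T cell had 60 mitotic UMIs and 11 of replication, while the TAC macrophage with most replication RNA had 52 of replication and 22 mitotic UMIs. The 8 cardiomyocytes stood at 1.71 times (1.31 to 2.20) and 1.30 times (0.883 to 1.84).

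**Figure D5:**
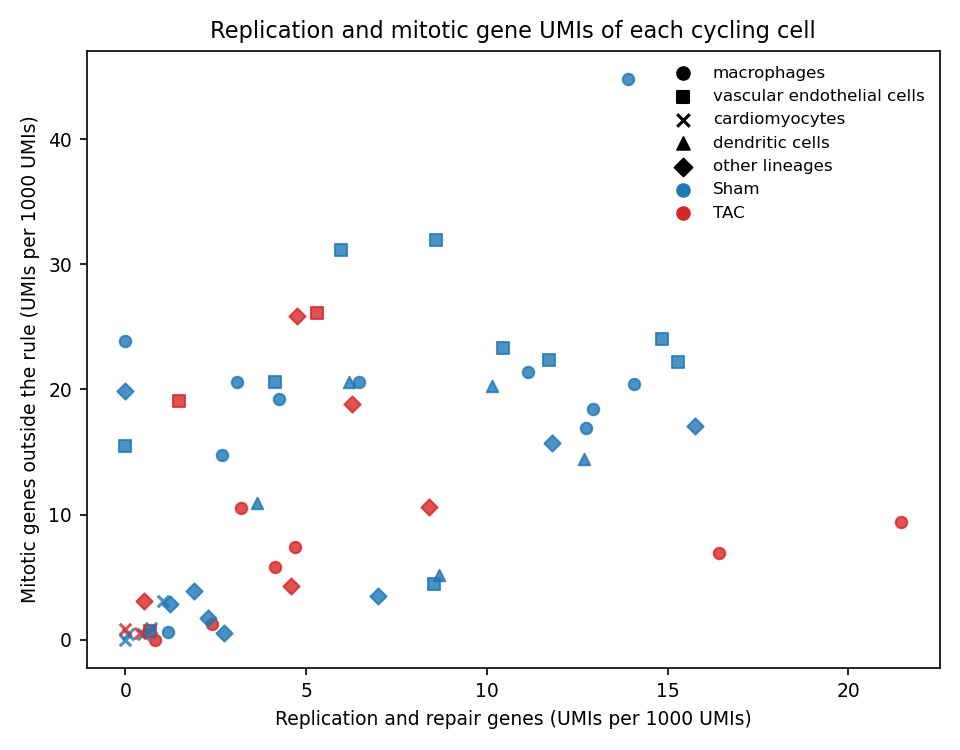
Each cycling cell by its UMIs per 1000 UMIs of replication and repair genes (x axis) and of mitotic genes outside the rule (y axis), with shapes for lineages and colours for libraries. The cardiomyocytes (crosses) lie together near 0, and the cells farthest right are 2 TAC macrophages.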

How the data were processed

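Single cells of dissociated whole hearts were measured with the 10x Genomics 3′ assay in 1 Sham and 1 TAC library. The deposited values are raw UMI counts per gene and barcode, which the authors made with Cell Ranger (version 7.1.0 in the submitters' processing notes). The genome build, the intron setting and the barcode filter were not given in the sources used here. Depths were 28146691 UMIs in 9935 barcodes (Sham) and 29108986 in 9932 (TAC). Of 55357 gene identifiers 94.1% were found in GENCODE M21.

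Members and gene lists were chosen with earlier results of these data known. Kit, Npr3, Vwf, Rgcc, Car4, Aplnr, macrophage subset markers and a rule without Cenpf were added after values were seen. A cell received the lineage, of 18 marker lists, with the highest Poisson log-likelihood against the share of the list in its library, given at least 3 UMIs in 2 genes and a score of at least 3. Clusters (scanpy 1.11.5, leidenalg 0.10.2, 2000 variable genes without cycle genes, 30 components, resolution 1) and Scrublet calls were made per library. Expected UMIs were summed over library and lineage. A gene was tested with at least 10 observed or expected UMIs and called at a 2-fold difference, a rule of size with no p-value. Named genes were the 10 highest with at least 20 UMIs in 5 or more members and the 5 lowest with at least 20 expected UMIs, without rule, mitochondrial, hemoglobin and lineage marker genes. Some genes that the rule names are not reported here. The minimum for describing a lineage's genes, planned at 20 members, was lowered to 10 because no lineage reached 20. Shares have Clopper-Pearson intervals, counts Poisson and ratios of counts conditional binomial intervals (SciPy 1.17.1). In simulated counts over 4282 genes for the comparison over all lineages, 100% of 100 genes raised 4-fold and of 85 tested genes lowered 4-fold were called. Of 4097 unchanged genes with at least 10 observed or expected UMIs, 53 (1.29%) were called higher. Among real genes 8.23% were called higher with the same minimum, and 1.54% with the narrower minimum of 10 expected UMIs. The simulation had no spread between cells and changed no rare genes, so its rates do not carry over to the rare genes among the calls. Alternatives changed the rule, the lineage names, doublets, depth, the minimum and the weighting of cells. Promoters were RefSeq windows on GRCm38.p6.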

Additional observations from a re-analysis of the deposited data

How the results depend on the processing

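No paired analysis was possible because there was 1 library of each kind and no replicate number to pair. The planned minimum of 20 members per lineage left no lineage to describe. Of the values that answer a comparison, 104 stayed close to the main value under the alternatives and 37 moved, and none reversed. A share or ratio counted as close when it lay within the interval of the main value. Counts of genes have no interval and counted as close when they differed by no more than a set factor. With at least 5 rule gene UMIs in 3 genes the cycling share was 0.272% in Sham and 0.0906% in TAC, and after thinning 0.269% and 0.0573%, with a TAC to Sham ratio of 0.213. Cardiomyocytes, 14.3% of the members, were 5.56% under the stricter rule, 3.70% after thinning, 6.25% with the second set and 6% without Cenpf. The cycling share of cardiomyocytes, 0.160%, was 0.0401%, 0.0201%, 0.0602% and 0.0602%. Genes higher in cycling cells numbered 197 in TAC alone, 127 with a minimum of 20 UMIs and 58 with a minimum of 10 expected UMIs. Genes lower numbered 282 with cluster lineages, 372 with means per cell and 53 with a minimum of 20 UMIs. Genes higher in both lineages numbered 3 in TAC alone, 6 with 20 UMIs and 0 with 10 expected UMIs in each lineage, which leaves out genes that enter through the cycling cells. The replication ratio, 5.19, was 6.06 without doublets, 6.07 in Sham, 3.87 in TAC, 6.80 under the stricter rule, 4.34 with cluster lineages, 6.44 with means per cell and 6.18 without cardiomyocytes. The ratio of the second set, 43.3, was 51.7, 59.4, 23.4, 67.4, 34.7, 55.3 and 51.0 in the same order. The G1 ratio was 0.491 with cluster lineages. The causes were not tested. The rule without Cenpf and the expected minimum were chosen after seeing the data. With 12 to 18 cells per main lineage, counting error alone spans a wide range, and rare lineages allow only upper limits.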
